A study of Mus musculus with 6 samples.

Results

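The histone genes of the mouse and Cenpa, which encodes the histone H3 variant of centromeres, are described here in resting CD4 T cells with and without vasoactive intestinal peptide (VIP). Members were found by gene name, as every non-control probe whose gene name begins with Hist1h to Hist4h, H1f, H2af or H3f3, or is Cenpa. This gave 50 genes with 71 probes, of 28626 genes with 41174 probes on the array. Of the 50, 36 were counted as replication-dependent cluster genes (Hist1 to Hist4) and 13 as variant genes, with Cenpa apart. The family was chosen by its measured log2 ratios of VIP over untreated, the values described below, so its ratios, counts and p-values are a description and are not independent evidence of its direction.

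VIP-treated cells were compared with untreated cells on 6 two-colour 60-mer oligonucleotide arrays, each holding both samples of 1 of 6 biological replicates. Both samples were CD4 T cells taken from spleens of C57BL/6J mice with anti-CD4 magnetic beads and labelled as resting. How much VIP was given, and for how long, is not stated in the labels. By the labels, each sample pooled 5 to 10 spleens of males and females aged 6 to 32 weeks, so a sample is a pool of animals and not 1 animal. Sex-linked transcripts, given below, show that the 2 samples of replicates 3 and 6 did not hold the same mix of sexes. Dyes were swapped between arrays, with VIP in Cy5 for replicates 1, 3 and 5 and in Cy3 for the others.

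Nucleosomes are built from the core histones H2A, H2B, H3 and H4, and H1 histones bind the linker DNA between them. Most histone protein is made during DNA replication from clustered genes without introns, whose messages end in a conserved stem-loop in place of a poly(A) tail. Variant histones such as H2A.Z and H3.3 are made throughout the cell cycle from ordinary polyadenylated messages, and some cluster genes also give polyadenylated messages in cells that have stopped dividing. VIP acts on T cells through G protein-coupled receptors that raise cyclic AMP.

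Cluster genes of 1 core histone type have almost the same coding sequence, so the probes decide how far those genes can be told apart. Each H1 cluster gene tested was read by a probe that matched 1 RefSeq gene. The probes that stood for 3 H2B genes called higher below are shown first because they are nearly the same sequence. They lie in mm9 at chr13:21814139-21814198 on the plus strand (Hist1h2bm), chr13:22127928-22127987 on the plus strand (Hist1h2bk) and chr11:58767697-58767756 on the minus strand (Hist3h2bb), within the H2B coding sequence. Capitals mark bases that differ from the Hist1h2bm probe.
Hist1h2bm: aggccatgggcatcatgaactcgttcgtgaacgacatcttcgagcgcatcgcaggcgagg
Hist1h2bk: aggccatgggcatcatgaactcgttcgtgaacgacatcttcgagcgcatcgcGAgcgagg
Hist3h2bb: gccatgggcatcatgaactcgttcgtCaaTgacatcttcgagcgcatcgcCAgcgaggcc
Counted from 1 at the 5′ end of the Hist1h2bm probe, the Hist1h2bk probe differs by A53G and G54A. The Hist3h2bb probe is shifted by 2 bases and differs by G29C, C32T, A53C and G54A over the 58 bases that overlap. By the accessions in the files, the Hist1h2bm probe also matches transcripts of H2bc4, H2bc8 and H2bc9, where H2bc4 is the current symbol of Hist1h2bc. The only RefSeq gene matched by the Hist3h2bb probe is H2bu2, the current symbol of Hist3h2ba. The signals of these 3 probes therefore cannot be assigned to single H2B genes, and the 9 genes called higher below rest on 7 separate probe sequences.

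The H4 probes for Hist1h4d (chr13:23673665-23673724, plus strand) and Hist1h4f (chr13:23643249-23643308, minus strand) are shown because they read the same stretch of H4 coding sequence 10 bases apart, with all 50 overlapping bases identical.
Hist1h4d: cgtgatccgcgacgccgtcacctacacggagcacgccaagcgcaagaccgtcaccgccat
Hist1h4f: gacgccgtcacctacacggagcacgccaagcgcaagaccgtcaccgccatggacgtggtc
The accessions list 4 RefSeq genes for each of them. Over the 45 genes tested, the probe that stood for the gene matched 1 RefSeq gene for 28, several for 11 and none for 6, and the files list at most 4 accessions for each probe in this family. The probe of Hist1h3a holds the histone stem-loop, found as a 6-base stem closed by a 4-base loop.
Hist1h3a, bases 42 to 57 of the probe: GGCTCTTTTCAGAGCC
Such a hairpin occurred in 1 of the 71 histone probes and in 2 of all 41174 probes. The polyadenylation signal AATAAA occurred in 3 histone probes, those of Cenpa, Hist1h2bp and Hist2h2bb, and in 4.8% of all probes.

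On each array 65.5 to 79.0% of spots were well above background in the Cy5 channel and 59.1 to 67.8% in the Cy3 channel. After a filter on dim probes, 19222 genes were tested with limma. The 8 CD4 T cell markers were well measured, with a summed signal of 17.72 to 18.12 in VIP-treated cells and 17.73 to 18.29 in untreated cells (normalized log2 intensity). Of the 8, 4 had positive and 4 negative ratios, with a median of -0.029, and only Thy1, a surface protein of T cells, was called, with a ratio of -0.29 (adjusted p = 0.0148). Cd3g and Cd3d had ratios of -0.15 and -0.13 and were not called (unadjusted p = 0.00588 and 0.00738), and Cd4 had 0.012. The 5 B cell markers tested (13.47 to 14.54 with VIP, 13.69 to 14.65 without) and the 5 erythroid markers tested (11.86 to 14.40 with VIP, 12.03 to 14.35 without) were also detected. None of these 10 was called, and all had negative ratios, with medians of -0.086 and -0.11. Ratios were also negative for 4 of 4 plasma cell markers (median -0.096; summed signal 12.23 to 13.23 with VIP, 12.60 to 13.34 without) and 3 of 3 platelet markers (-0.075; 8.14 to 8.63 with VIP, 8.29 to 8.72 without). They were positive for 4 of 5 macrophage and monocyte markers (0.090; 9.90 to 15.87 with VIP, 10.07 to 15.87 without), both CD8 T cell markers (0.086), 2 of 4 NK cell markers, 2 of 3 neutrophil markers and 2 of 3 dendritic cell markers, and no marker of these 7 lists was called. The part of these cells in the histone ratios was not tested. Sex-linked transcripts were unequal between the channels on replicates 3 and 6. Xist had log2 ratios of VIP over untreated of -6.12 on replicate 3 and 2.03 on replicate 6, against -0.083 to 0.34 on the other 4 arrays. Ddx3y, a gene of the Y chromosome, had 2.04 and -3.96 on replicates 3 and 6, against -0.21 to 0.31 on the other 4. On replicates 3 and 6 an effect of VIP and a difference in the sex of the animals cannot be told apart. The genes still called without those 2 arrays are named below, and the part of the 2 arrays in the results was not tested.

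Of the 50 genes, 45 passed the filter. At an adjusted p under 0.05 over all genes, 9 of the 45 were called higher with VIP and 0 were called lower, beside 1.72% of all genes tested called higher and 1.37% called lower. The 9 were Hist1h2bc, Hist3h2ba, Hist1h2bm, Hist3h2bb, Hist1h2bk, Hist1h1c, Hist1h1e, Hist1h4i and Cenpa. Their changes were small, with log2 ratios from 0.28 to 0.45, or 1.21-fold to 1.37-fold. At an unadjusted p under 0.05, 21 of the 45 were higher and 0 lower, beside 7.49% of all genes higher and 9.21% lower. The ratio was positive for 39 of the 45 tested genes and for 47.1% of all genes, with medians of 0.094 for the histone genes and Cenpa and -0.0047 for all genes. The 45 genes rested on 40 separate probe sequences, so these counts and those by type below take some near-identical probes more than once. In RNA from whole populations, fewer cells of a type and less RNA per cell cannot be told apart, and the same holds for more of either.

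**Figure D1:**
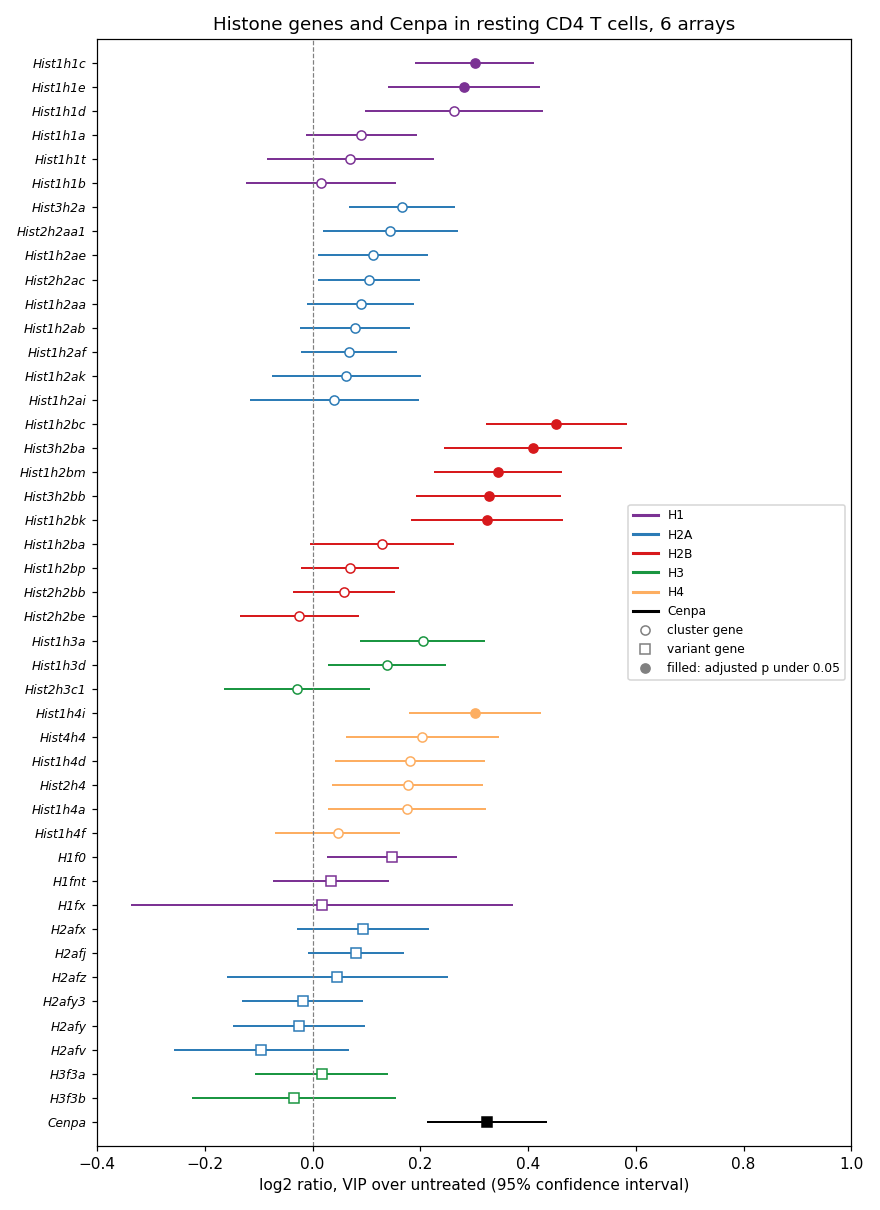
Log2 ratio of VIP-treated over untreated cells for the 45 histone genes and Cenpa that were tested, with 95% confidence intervals from the fit over 6 arrays. Filled points are the 9 genes called at an adjusted p under 0.05. The 5 filled H2B genes lie between 0.32 and 0.45, and the squares of the variant genes without Cenpa lie between -0.10 and 0.15.

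Apart from Cenpa, the genes called were all cluster genes. Among 33 cluster genes tested, 8 were called higher and 31 had a positive ratio, with a median of 0.14. Among 11 variants without Cenpa, 0 were called in either direction by limma, 1 passed an unadjusted p under 0.05, and the median was 0.017. For the variant H3f3b this depended on the probe, since another of its probes gave 0.27 (limma adjusted p = 0.0214 in the fit over all probes). By type, the H2B cluster genes had the highest median, 0.32, with 5 of 9 called. The medians of the other cluster types were 0.18 for H1 (2 of 6 called), 0.18 for H4 (1 of 6 called), 0.14 for H3 (0 of 3 called) and 0.089 for H2A (0 of 9 called). At an unadjusted p under 0.05 there were 3 H1, 4 H2A, 5 H2B, 2 H3 and 5 H4 cluster genes, all higher with VIP, beside the 7.49% of all genes given above. The difference between cluster genes and variants was not tested.

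Among the H2B genes, whose protein pairs with H2A in the nucleosome, Hist1h2bc had the largest ratio of the family. Its normalized log2 intensity was 9.49, 10.03 and 10.48 (lowest, median and highest of 6) in VIP-treated cells, against 9.09, 9.66 and 9.98 in untreated cells. The ranges overlapped, but the VIP-treated sample was the higher one on all 6 arrays. The log2 ratios were 0.50, 0.63, 0.61, 0.24, 0.30 and 0.44 on replicates 1 to 6, giving a fitted 0.45 ± 0.058 (SE; adjusted p = 0.00278). Its probe (chr13:23784219-23784278) matched Hist1h2bc as its only RefSeq gene.

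Hist3h2ba, an H2B gene of the small Hist3 cluster on chromosome 11, also had a probe that matched 1 RefSeq gene (H2bu2; chr11:58762948-58763007). The Hist3h2bb probe matched H2bu2 too, so the ratios of Hist3h2ba and Hist3h2bb are not certain to come from separate genes. The signal of Hist3h2ba was 10.91, 11.26 and 11.41 in VIP-treated cells, against 10.44, 10.81 and 11.14 in untreated cells. The log2 ratios were 0.91, 0.33 and 0.89 on replicates 2, 4 and 6, where VIP was in Cy3, and 0.07, 0.25 and -0.0037 on replicates 1, 3 and 5, where it was in Cy5. The ratio thus moved with the dye, and the fitted dye term of this probe was -0.30 (log2, Cy5 over Cy3). With that term removed, all 6 arrays lay between 0.027 and 0.61, and the fitted ratio was 0.41 ± 0.074 (SE; adjusted p = 0.0148). Without a dye term in the fit the same ratio had an SE of 0.13 and was not called (adjusted p = 0.273).

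The 3 H2B genes read by nearly the same probe sequence had nearly the same values. Hist1h2bm gave 10.05, 10.29 and 10.44 with VIP, against 9.73, 9.92 and 10.09 without, and a ratio of 0.34 ± 0.053 (SE; adjusted p = 0.00712). Hist3h2bb gave 9.96, 10.17 and 10.57 with VIP, against 9.41, 9.92 and 10.31 without, and a ratio of 0.33 ± 0.060 (SE; adjusted p = 0.0161). Hist1h2bk gave 9.90, 10.19 and 10.64 with VIP, against 9.61, 9.90 and 10.14 without, and a ratio of 0.32 ± 0.063 (SE; adjusted p = 0.0208). Replicate 4 gave the lowest ratio for all 3, at 0.09 for Hist1h2bm, 0.017 for Hist3h2bb and -0.0021 for Hist1h2bk. A second probe of Hist1h2bk, in the bases just before the first, gave 0.26 (adjusted p = 0.0497 in the fit over all probes).

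The remaining H2B genes tested were Hist1h2ba, a testis form, with a ratio of 0.13 on 5 arrays, Hist1h2bp with 0.070, Hist2h2bb with 0.058 and Hist2h2be with -0.024, and none was called. The probe of Hist2h2be matched 1 RefSeq gene and had a signal of 8.82, 9.06 and 9.20 with VIP, against 8.89, 9.02 and 9.32 without, and its ratio had an interval of -0.13 to 0.084. Hist1h2be was not tested, since its probe was above background on 0 of 6 arrays in both channels.

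**Figure D2:**
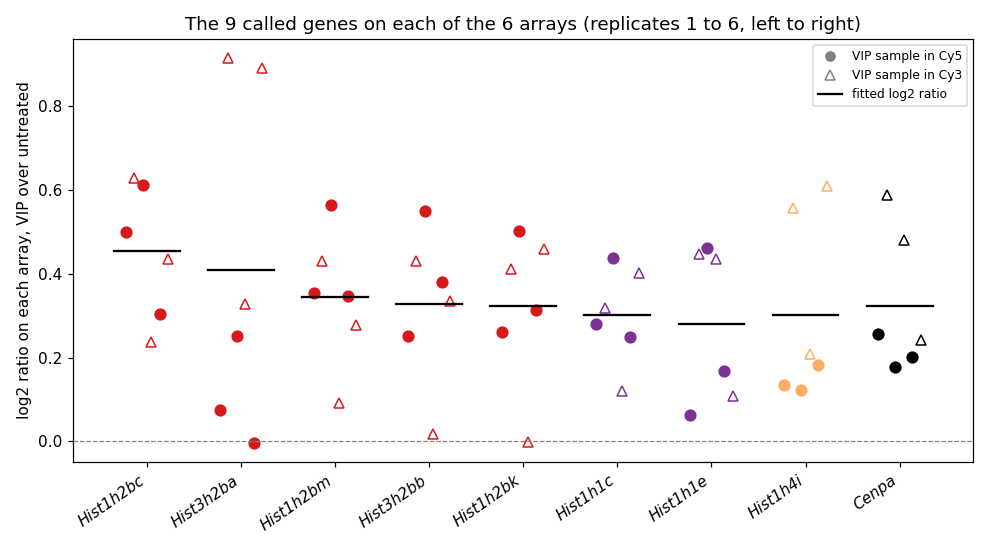
Log2 ratio of VIP over untreated on each array for the 9 called genes, with replicates 1 to 6 from left to right and the fitted ratio as a line. Filled circles are arrays with VIP in Cy5 and open triangles arrays with VIP in Cy3. Hist3h2ba and Hist1h4i separate by dye, and Hist1h2bc lies between 0.24 and 0.63 on all 6 arrays.

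Of the H1 genes, which encode linker histones, Hist1h1c and Hist1h1e were called higher. Hist1h1c (H1.2) had a signal of 11.13, 11.46 and 11.60 with VIP, against 10.94, 11.11 and 11.20 without. Its ratio was positive on all 6 arrays, from 0.12 to 0.44, with a fitted 0.30 ± 0.049 (SE; adjusted p = 0.00965). Hist1h1e (H1.4) had 10.72, 11.41 and 11.95 with VIP, against 10.39, 11.16 and 11.71 without, and a fitted 0.28 ± 0.063 (SE; adjusted p = 0.0399). A second, dim probe under the same gene name, at another position of chromosome 13 and with no RefSeq gene, gave -0.044.

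Hist1h1d (H1.3) had a ratio of 0.26 ± 0.074 (SE) with an adjusted p of 0.0917, and so lay just outside the threshold. Its signal was 7.72, 8.10 and 8.56 with VIP, against 7.72, 7.83 and 8.20 without. Hist1h1a, Hist1h1t (the testis form) and Hist1h1b had ratios of 0.091, 0.070 and 0.016. The H1 variant H1f0, which encodes H1.0, a linker histone of cells that have left the cell cycle, had a ratio of 0.15 (adjusted p = 0.193). Its other probes, at mean log2 intensities of 6.46 and 6.41, gave 0.026 and 0.064. H1fnt, a testis form, had a ratio of 0.034 at a signal near the lower end of the scale (6.48). The probe that stood for H1fx carries a single expressed sequence tag with no position in the files, and its ratio of 0.017 had an interval of -0.34 to 0.37 on 5 arrays. H1foo, the oocyte form, was above background on 6 of 6 arrays but was left with 4 arrays after outlier flags, 1 of them with VIP in Cy3, and was not tested.

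**Figure D3:**
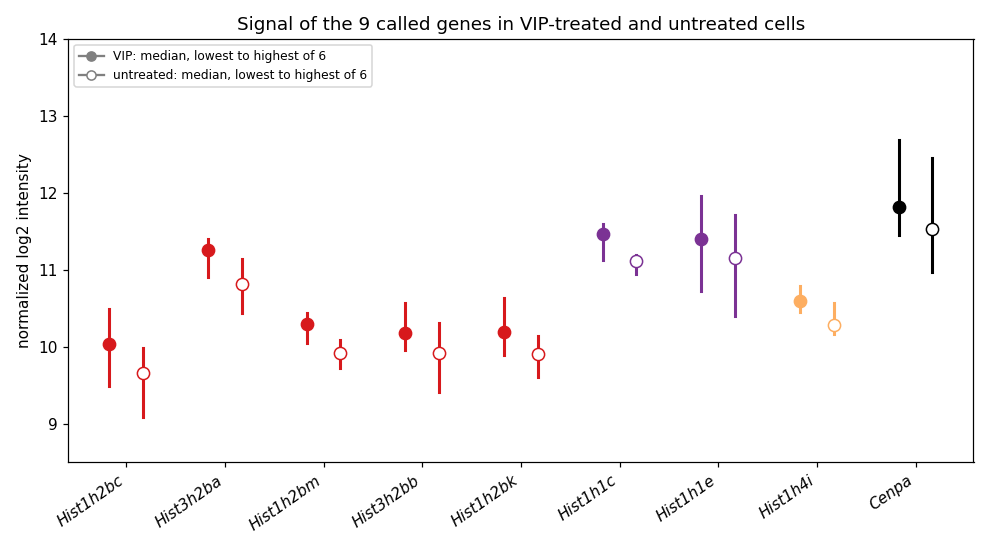
Normalized log2 intensity of the 9 called genes, with the median (point) and the lowest to highest value (line) of 6 VIP-treated samples, left, and 6 untreated samples, right. The ranges overlap for each gene, and the VIP-treated median is the higher one for each.

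The H4 genes encode the same protein, and their ratios lay together between 0.047 and 0.30. Hist1h4i was called, with 10.45, 10.60 and 10.79 in VIP-treated cells, against 10.17, 10.28 and 10.57 in untreated cells. Its log2 ratios were 0.56, 0.21 and 0.61 with VIP in Cy3 (replicates 2, 4 and 6) and 0.14, 0.12 and 0.18 with VIP in Cy5 (replicates 1, 3 and 5). The sign was the same on 6 of 6 arrays, and the fitted ratio was 0.30 ± 0.054 (SE; adjusted p = 0.0147). The probe of Hist1h4i matched no RefSeq gene, and its listed position, chr13:22132449-22132455, is shorter than its 60 bases. The other H4 genes were not called, with 0.20 for Hist4h4 (adjusted p = 0.123), 0.18 for Hist1h4d (0.165), 0.18 for Hist2h4 (0.177), 0.17 for Hist1h4a (0.207) and 0.047 for Hist1h4f (0.727). Hist1h4d and Hist1h4f share 50 bases of probe sequence, as printed above, yet the Hist1h4d probe gave the higher ratio on every array. With the dye term removed, Hist1h4d had 0.067, 0.46, 0.24, -0.049, 0.23 and 0.13 on replicates 1 to 6. Hist1h4f had -0.059, 0.23, 0.12, -0.12, 0.079 and 0.024. The intervals of their fitted ratios, 0.044 to 0.32 and -0.068 to 0.16, overlapped, but both probes were read on the same arrays. The difference between these probes was not tested. On replicate 4 all 6 H4 genes but 1 were below 0 with the dye term removed, and on replicates 2, 3, 5 and 6 all 6 were above 0.

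Among the H3 genes of the clusters, Hist1h3a lay just outside the threshold. It is read by the stem-loop probe printed above, and it had 8.11, 8.34 and 8.66 with VIP, against 7.99, 8.08 and 8.36 without. Its ratio was 0.20 ± 0.052 (SE; adjusted p = 0.0635), with only replicate 4 below 0, at -0.049. Hist1h3d, whose probe matches 4 H3 genes, had a ratio of 0.14 on 5 arrays (adjusted p = 0.178), and Hist2h3c1, whose probe matches 3, had -0.029 (0.874).

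No H2A cluster gene was called. Hist3h2a, which lies beside the Hist3 H2B genes, came nearest, with 13.24, 13.50 and 13.95 in VIP-treated cells, against 13.23, 13.28 and 13.68 in untreated cells. Its ratio was 0.17 ± 0.043 (SE; adjusted p = 0.0703), and its second probe, also above background throughout, gave 0.25 (adjusted p = 0.0117 in the fit over all probes). The other H2A cluster genes tested had positive ratios from 0.041 to 0.14. Among them Hist2h2aa1 (0.14), Hist2h2ac (0.10) and Hist1h2ae (0.11) had unadjusted p-values of 0.0258, 0.0297 and 0.0321. Hist1h2aa and Hist1h2af, with ratios of 0.089 and 0.067, had intervals of -0.0086 to 0.19 and -0.020 to 0.15. Their probes share 47 of 60 bases, with all 13 differences toward the 3′ end, and had mean log2 intensities of 15.69 and 15.79. Their ratios are therefore not certain to come from separate genes. Hist1h2ac was not tested, since its probe was above background on 2 VIP-treated and 1 untreated samples, and Hist1h2al was left with 1 array after outlier flags.

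The H2A variants had ratios on both sides of 0. H2afz (H2A.Z), which marks promoters and enhancers, had 16.44, 16.93 and 17.28 with VIP, against 16.0005, 16.59 and 17.96 without, and a ratio of 0.046 ± 0.091 (SE) on 5 arrays. H2afv, which encodes a second H2A.Z protein, had -0.095, and H2afx, whose phosphorylated protein marks DNA breaks, had 0.094. H2afj, H2afy (macroH2A1, a form with a large added domain) and H2afy3 had 0.081, -0.025 (on 5 arrays) and -0.018. A second H2afj probe, above background on 6 arrays in both channels, gave -0.015. H2afy2 was above background on 2 VIP-treated and 0 untreated samples and was not tested. A ratio near 0 here is not evidence of no change, since the intervals of H2afz and H2afv reached 0.25 and -0.26.

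H3f3a and H3f3b encode the same H3.3 protein, which is placed in chromatin outside replication. H3f3a had ratios of 0.017, 0.012 and -0.034 on its 3 probes, the other two measured on 5 arrays. The 3 probes of H3f3b did not give one answer. The brightest, which stood for the gene, gave -0.035 ± 0.085 (SE), with a dye term of 0.51 and ratios from -0.91 to 0.67 across arrays. The second, at a mean log2 intensity of 15.54, gave 0.27 (adjusted p = 0.0214 in the fit over all probes), with a dye term of -0.39, and the third gave 0.19 (0.0958). The direction for H3f3b therefore depends on the probe.

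Cenpa, the H3 variant that defines the centromere and is loaded by the chaperone Hjurp, was called higher. It had 11.45, 11.81 and 12.69 in VIP-treated cells, against 10.97, 11.53 and 12.45 in untreated cells. The log2 ratios were 0.26, 0.59, 0.18, 0.48, 0.20 and 0.24 on replicates 1 to 6, so all 6 were above 0, and the fitted ratio was 0.32 ± 0.050 (SE; adjusted p = 0.00707). The probe (chr5:30976729-30976788) holds AATAAA and matched Cenpa alone. A second, dim probe (mean log2 intensity 6.93) without a RefSeq accession gave 0.12 on 5 arrays (adjusted p = 0.466 in the fit over all probes). Of 18 other genes of CENP-A loading and the inner kinetochore, 0 were called by limma, 3 were higher and 0 lower at an unadjusted p under 0.05 (all genes 7.49% and 9.21%), and the median was 0.038. Those with the lowest p were Hjurp (0.13; adjusted p = 0.134) and Cenpt, a subunit of the inner kinetochore (0.15; adjusted p = 0.165).

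Genes that act with the histones were counted in the same fit. Of 33 genes of S phase and proliferation, 0 were called by limma in either direction, and 4 were higher and 3 lower at an unadjusted p under 0.05, with a median of 0.0059. At that threshold 7.49% of all genes were higher and 9.21% lower, and the counts of this and the following lists stand beside those shares. Cdt1, which licenses replication origins, had a ratio of -0.24 on 5 arrays (adjusted p = 0.0761), and Mcm4, a subunit of the replicative helicase, had 0.14 (0.116). Of 16 genes listed for histone mRNA 3′ end processing and stability, 0 were called, and 1 was higher and 1 lower at an unadjusted p under 0.05, with a median of -0.0026. Those with the lowest p were Mphosph6 (0.13; adjusted p = 0.153) and Zfp473, which acts in cutting the message (-0.18; adjusted p = 0.160). Slbp, whose protein binds the stem-loop, had 0.094 (adjusted p = 0.343). Of 24 histone chaperones and deposition factors, 0 were called, and 0 were higher and 6 lower at an unadjusted p under 0.05 (all genes 7.49% and 9.21%), with a median of -0.039. Srcap, which exchanges H2A for H2A.Z, had -0.16 (adjusted p = 0.0690), and Daxx, a chaperone of H3.3, had -0.15 (0.113).

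**Figure D4:**
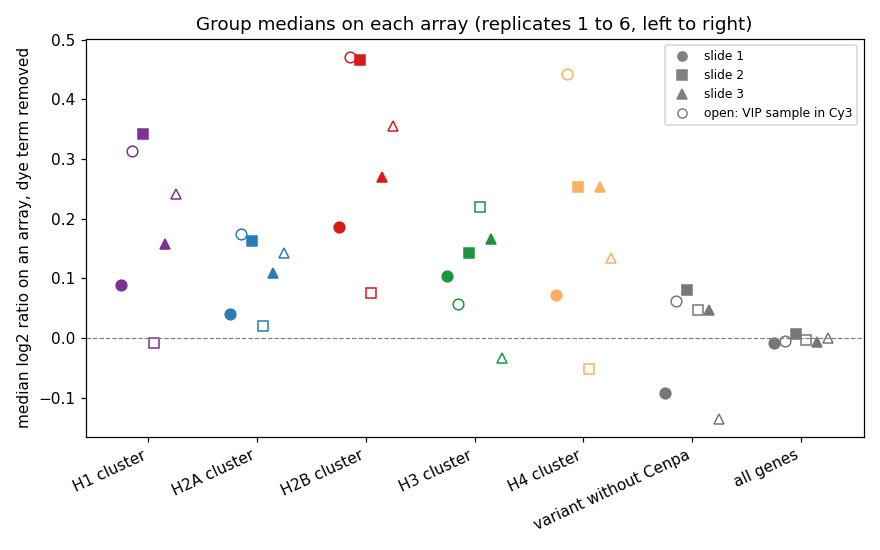
Median log2 ratio of each group of genes on each array after the dye term was removed, with replicates 1 to 6 from left to right, slides as marker shapes and open markers for arrays with VIP in Cy3. The H2B cluster genes lie above 0 on all 6 arrays, lowest at 0.076 on replicate 4, and the median of all genes lies between -0.0075 and 0.0063.

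Arrays differed in how far the histone genes moved. With the dye term removed, the median over all 45 genes was lowest on replicate 4, at 0.033, and highest on replicate 2, at 0.20, against -0.0075 to 0.0063 for all genes on the 6 arrays. The 6 arrays were on 3 slides, each with both dye orientations, and slide and scan could not be told apart. The cluster genes had medians of 0.16, 0.12 and 0.19 on the 3 slides, and the variants without Cenpa 0.020, 0.071 and 0.0094. The H2B cluster genes had 0.34, 0.25 and 0.31. The fitted dye terms of the 45 genes ran from -0.47 to 0.51, with a median of 0.065, against 0.013 for all genes.

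**Figure D5:**
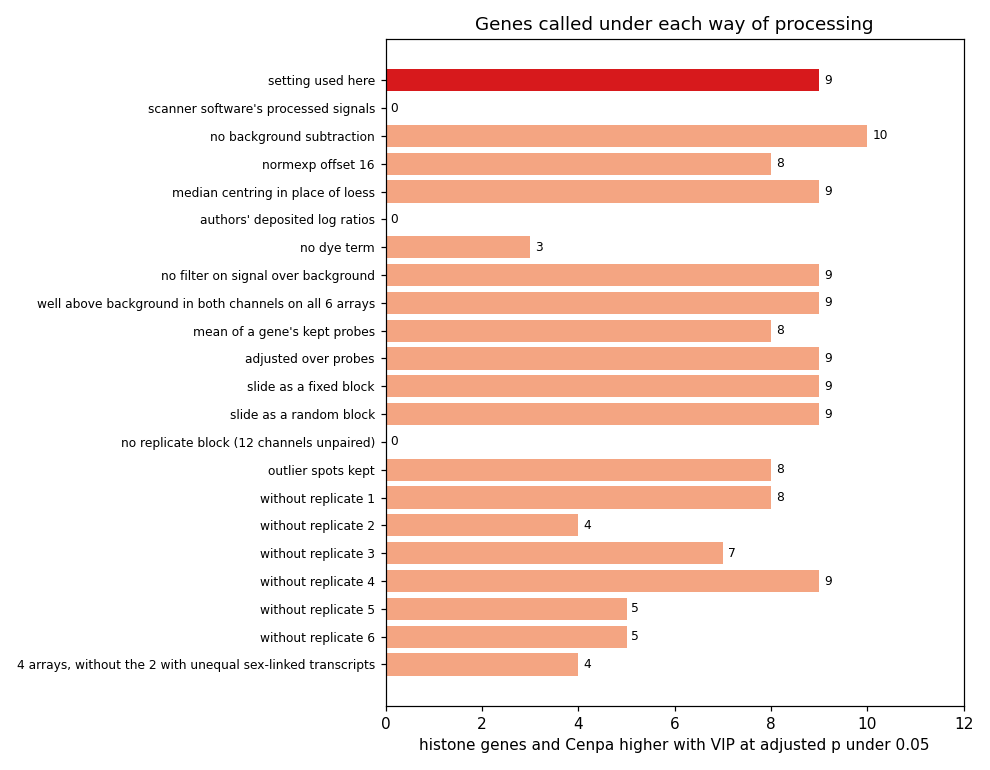
Number of the histone genes and Cenpa called higher with VIP under each way of processing the arrays, with the setting used here on top. The count is 9 in that setting, 10 without background subtraction, and 0 with the scanner's processed signals, the deposited log ratios or the channels taken as unpaired.

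The calls depended on the processing. With the authors' deposited log ratios, or the scanner's processed signals they were made from, 0 of the 45 genes were called by limma. At an unadjusted p under 0.05, 20 were higher with the deposited ratios and 15 with the processed signals, and 0 were lower. The shares of all genes at that threshold are not given for these settings, so these counts cannot be set against them. Over all genes, 30 were called higher and 9 lower with the deposited ratios. Hist1h2bc then had a ratio of 0.51 (adjusted p = 0.0671) and Cenpa 0.35 (0.0919). Without replicates 3 and 6, on which sex-linked transcripts were unequal, 4 remained called, namely Cenpa, Hist1h1e, Hist1h2bc and Hist1h2bm. The count was 4 without replicate 2, and 5 without replicate 5 or without replicate 6. Leaving out 1 replicate at a time, Cenpa, Hist1h1c, Hist1h2bc and Hist1h2bm were called in all 6 fits, Hist3h2ba in 4, Hist3h2bb in 3, and Hist1h1e, Hist1h2bk and Hist1h4i in 2. With no dye term, 3 genes were called (Hist1h1c, Hist1h2bc and Hist1h2bm), and Cenpa had an adjusted p of 0.0717. With the mean of a gene's probes in place of the brightest, Cenpa had a ratio of 0.27 (adjusted p = 0.0633) and Hist1h1e 0.12 (0.178), so neither was called. Hist3h2a, not among the 9, was called in that setting. Hist1h3a, also not among the 9, was called with no background subtraction and without replicate 4. Of the 21 alternatives, Hist1h2bc and Hist1h2bm were called in 18, Hist1h1c in 17, Cenpa in 16 and Hist1h1e in 10. The 9 called genes had a positive ratio in all 21, the lowest being the 0.12 of Hist1h1e.

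The promoters of the cluster genes are described because several cluster genes were called together. RefSeq promoters (GRCm38.p6, 250 bases before the start) were found for 32 of the 45 genes tested, and each motif was searched on both strands. The octamer ATTTGCAT, known as an element of H2B promoters that binds Oct1, was in 3 of 4 H2B, 4 of 8 H2A, 0 of 6 H1, 0 of 2 H3 and 0 of 4 H4 cluster promoters, and in 1.8% of 27025 promoters of all genes. H2A and H2B genes often lie head to head, so such a pair can share 1 promoter region. CCAAT was in 21 of 24 cluster promoters and in 37.5% of all promoters, and TATAAA was in 13 of 24 and in 14.3%. The cyclic AMP response element TGACGTCA was in 1 of 24, that of Hist1h4a, and in 1.8% of all promoters. Of the 6 called genes with a promoter in the table, 6 held CCAAT and 2 held the octamer. A match is a description of the letters and not of a bound site.

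The last 90 bases before the start are printed for the 3 called H2B genes in the table, with the octamer in capitals. They lie on the plus strand at chr13:22035731-22035820 (Hist1h2bk), chr13:21721954-21722043 (Hist1h2bm) and chr11:58948821-58948910 (Hist3h2ba) in GRCm38.p6.
Hist1h2bk: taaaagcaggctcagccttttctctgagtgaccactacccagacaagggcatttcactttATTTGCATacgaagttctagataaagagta
Hist1h2bm: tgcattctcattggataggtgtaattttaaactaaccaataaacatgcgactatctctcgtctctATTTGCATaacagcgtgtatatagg
Hist3h2ba: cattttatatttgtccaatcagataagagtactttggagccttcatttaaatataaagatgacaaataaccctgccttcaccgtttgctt
The octamer begins 30 bases before the start in Hist1h2bk and 25 in Hist1h2bm, and it is not in these letters for Hist3h2ba. The part of the octamer in the ratios was not tested.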

How the data were processed

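Total RNA (250 ng a sample) was labelled with Cy3 and Cy5 and hybridised to 2-colour Agilent arrays, per the labels' protocols. The authors deposited 1 scanner file an array, made with Agilent Feature Extraction 9.5.1.1 on build mm9, per the file headers. Each file holds mean and background signals as linear intensity, the software's processed signals as intensity, a log10 ratio of red over green, and 0 or 1 flags per spot (background, saturation, outlier), a score with no unit, per the file headers. The value table the authors deposited equals that log10 ratio with the sign turned on replicates 2, 4 and 6.

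Signals were background-corrected (normexp, offset 50), loess-normalized within arrays and turned to VIP over untreated by the dyes in the labels. Control and outlier-flagged spots were left out. Probes had to be well above background in at least 3 VIP-treated or at least 3 untreated samples, with at least 2 arrays in each dye orientation left (27454 probes). The brightest kept probe stood for a gene. limma 3.58.1 (R 4.3.3) fitted the ratio with a probe-specific dye term over all genes, and eBayes p-values were adjusted by Benjamini-Hochberg over 19222 genes. A call is an adjusted p under 0.05. Levels are log2 intensities after Aquantile scaling between arrays. No member spot was saturated. The array ratio pairs both samples of a replicate. Precision is set by the number of arrays, 6, each sample being a pool of spleens. Both samples of a replicate did not hold the same mix of sexes on replicates 3 and 6. The script was checked on simulated ratios.

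Members, gene lists and tests were chosen with earlier results of these data known. Members named with values were those called, those with an unadjusted p under 0.05, Cenpa, and the brightest of each type, and other members are given by their ratio. Gene names are those of the array's design. By accession, 57 of the 71 histone probes matched RefSeq, and motifs and promoters came from RefSeq (GRCm38.p6). Translation of the probes against proteins was not done. Probe pairs were called near-identical at 90% identity over at least 40 bases.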

Additional observations from a re-analysis of the deposited data

How the results depend on the processing

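Every alternative left the count of histone genes and Cenpa called lower at 0, and the median log2 ratio between 0.086 and 0.14. The count called higher, 9 as reported, was 0 with the scanner's processed signals, 0 with the authors' deposited log ratios, 0 with no replicate block (the 12 channels as unpaired samples), 3 with no dye term and 4 without the 2 arrays with unequal sex-linked transcripts, an alternative chosen after seeing the data. All genes called fell as well, to 24 higher and 9 lower with the processed signals, 30 and 9 with the deposited ratios, and 3 and 1 unpaired. In the unpaired fit, 6 of the histone genes and Cenpa were higher and 0 lower at an unadjusted p under 0.05. The share of all genes at that threshold is not given for the unpaired fit. The cause was not tested. Leaving out 1 replicate gave 4 to 9 genes called higher and medians of 0.086 to 0.12. The counts over all genes in those fits are not given here. The other 10 alternatives gave 8 to 10. The pairing comes from the arrays, each of which holds both samples of a replicate.

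The sign turned only for genes that were not called. H1fnt was -0.25 with processed signals, -0.24 with deposited ratios, -0.066 with no background subtraction and -0.021 on the 4 arrays. H1fx was -0.024 with processed signals, -0.019 with deposited ratios, -0.063 with no dye term, -0.013 as a mean of probes, -0.031 with slide as a fixed block, -0.044 with outlier spots kept, and -0.18 without replicate 2 and -0.061 without replicate 5. Median centring gave -0.062 for H2afz, -0.033 for H3f3a and -0.028 for Hist1h4f. The mean of probes gave -0.022 for H3f3a and 0.14 for H3f3b. Without replicate 2, Hist1h1b was -0.051 and H3f3a -0.028, and without replicate 5 they were -0.0065 and -0.029. Without replicate 4, H2afz was -0.13. Without replicate 6, Hist2h3c1 was 0.029 and H3f3b 0.057, and on the 4 arrays they were 0.032 and 0.0081. Over the 6 fits that leave out a replicate, the ratios ran from -0.18 to 0.16 for H1fx, -0.051 to 0.071 for Hist1h1b, -0.13 to 0.22 for H2afz, -0.098 to 0.029 for Hist2h3c1, -0.029 to 0.046 for H3f3a and -0.14 to 0.057 for H3f3b.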
